A study of Mus musculus with 6 samples.

Results

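The open chromatin at 10 genes of the p53 apoptosis circuit was examined in mouse long-term haematopoietic stem cells: Trp53, its regulators Mdm2 and Mdm4, its targets Ccng1, Bax, Bbc3 and Pmaip1, and the survival genes Bcl2, Mcl1 and Bcl2l1. The members are 10 of 21631 protein-coding genes. They and the further gene lists were taken by name, with earlier results of these data known. Their loci were defined as the gene body with 25 kb on each side, and every distinct peak that overlapped a locus was used. Overlapping peaks of the 6 lists (1 bp or more) were joined, which gave 359 regions at the 10 loci of 882758 in the genome, from 654 of 1133199 distinct peaks.

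The peaks came from ATAC-seq, in which a transposase cuts and tags accessible DNA, in 3 samples from aged and 3 from young C57BL/6 mice. All were sorted as Lin-, Kit+, Sca1+, Flk2- and Cd34- cells and had been kept overnight at 3% oxygen in buffered saline with 10% foetal serum, at both ages. The labels give neither the age in weeks nor the sex, and they leave out whether the replicates are different animals, so the spread behind each p-value may be only technical. Each title also carries an unexplained number, 2500 in replicate 2 and 5000 in replicate 3 of both ages, and a higher one in aged replicate 1 (10000) than in young replicate 1. A second unexplained number is 2, 5 and 3 in replicates 1 to 3 of both ages.

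Read numbers are not given, so depth is unknown. Lists held between 129137 and 244692 distinct peaks in aged samples and between 110596 and 263956 in young samples. Of the regions that all other lists shared, aged replicate 3 called 75.6% and young replicate 2 called 62.3%, while each of the remaining lists called at least 97.4%. Young replicate 2 also held only 200 distinct values of -log10 p, against at least 2302 in each other list. These lists stand apart, so results that rest on them are given with and without them where both were computed, and the text says where a value was not recomputed. The stem cell label was checked at marker promoters. A peak lay within 1 kb of a start in all 6 lists at 5 of 8 stem cell markers (Hlf, Mecom, Meis1, Tal1 and Kit), at all 4 megakaryocyte markers and at 0 of 22 markers of 5 other kinds (B, T and NK, myeloid, erythroid, and stroma with endothelium), against 34.5% of all genes. With a call in at least 5 lists it was 7 of these 22, against 49.9% of genes, and with a call in all lists but aged replicate 3 and young replicate 2 it was 5 of 22, against 53.8%. Of the other stem cell markers, Procr was called in 5 lists and Ly6a, the gene of the sort marker Sca1, in 4. Ly6a has no annotated start, so both gene ends were used, and its mean percentile was 43.7. Slamf1, a defining surface marker of these stem cells, had no such peak in any list.

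p53 is a transcription factor that is stabilised after DNA damage and other stress, and it then switches on genes that stop the cell cycle or start apoptosis. Mdm2 is its ubiquitin ligase and Mdm4 its second main inhibitor, and Mdm2 is itself a p53 target, which closes a feedback loop. In apoptosis the product of Bbc3 (PUMA) binds and neutralises survival proteins such as Bcl2, Mcl1 and Bcl2l1 (BCL-XL). That of Pmaip1 (NOXA) acts mainly on Mcl1 among them. Such binding frees Bax to permeabilise mitochondria. In blood stem cells p53 is known for its part in quiescence and in the response to irradiation, and Mcl1 is needed for their survival in mice.

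The 250 bases before an annotated start are shown for the members whose sequence bears on the peaks, 5′ to 3′ on the strand of the gene, from RefSeq (GRCm38.p6, to which mm10 corresponds). Of the 10 members, 9 had an entry, with 14 starts. The first set is shown because each stretch holds a match to the p53 site in the gene strand or its complement. Capitals mark an exact p53 half-site of 10 bases in Trp53 (chr11:69580109-69580358, plus strand) and Mdm2 (chr10:117710759-117711008, minus strand). In Ccng1 (chr11:40755287-40755536, minus strand) and Bax (chr7:45466899-45467148, minus strand) they mark a pair of half-sites with at most 2 mismatches.
Trp53: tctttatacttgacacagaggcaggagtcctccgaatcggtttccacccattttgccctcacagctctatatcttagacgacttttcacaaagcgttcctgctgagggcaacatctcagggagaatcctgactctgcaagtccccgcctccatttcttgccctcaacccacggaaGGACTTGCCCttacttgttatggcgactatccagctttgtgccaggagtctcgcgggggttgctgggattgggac
Mdm2: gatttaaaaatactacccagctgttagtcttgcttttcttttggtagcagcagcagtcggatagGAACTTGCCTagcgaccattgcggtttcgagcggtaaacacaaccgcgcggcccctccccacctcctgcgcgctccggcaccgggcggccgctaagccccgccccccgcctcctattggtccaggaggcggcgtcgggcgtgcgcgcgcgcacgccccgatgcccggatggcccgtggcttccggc
Ccng1: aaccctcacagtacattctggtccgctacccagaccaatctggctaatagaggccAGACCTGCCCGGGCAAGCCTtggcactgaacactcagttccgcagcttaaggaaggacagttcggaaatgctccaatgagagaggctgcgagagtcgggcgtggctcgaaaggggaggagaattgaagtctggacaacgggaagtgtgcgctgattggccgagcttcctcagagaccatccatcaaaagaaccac
Bax: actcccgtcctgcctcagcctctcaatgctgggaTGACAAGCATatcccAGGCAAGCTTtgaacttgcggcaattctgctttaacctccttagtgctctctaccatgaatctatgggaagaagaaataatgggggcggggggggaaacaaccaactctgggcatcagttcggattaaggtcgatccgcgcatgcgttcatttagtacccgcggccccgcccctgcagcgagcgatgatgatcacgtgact

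The Ccng1 match, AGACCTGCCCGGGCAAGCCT, had 1 mismatch and no spacer, and it lay 195 to 176 bases before the start. A peak covered it in all 6 lists. The Bax match, TGACAAGCATatcccAGGCAAGCTT in the line for that gene, had 2 mismatches and a spacer of 5 bases, 216 to 192 bases before the start. It was covered in 1 aged and 1 young list (aged replicate 2 and young replicate 1). The half-sites GGACTTGCCC of Trp53 and GAACTTGCCT of Mdm2 were each covered in all 3 aged and in 2 young lists, with young replicate 2 the one without. Exact half-sites were found at 4 of the 14 member starts, against 7.37% of 21045 promoter windows of 300 bases, and full sites with up to 2 mismatches at 2 of 14, against 3.74%. These matches are descriptions of letters and say nothing of binding.

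The next set is shown because these genes have both an annotated start under a peak and one under none. Capitals mark CpG dinucleotides. Peaks covered the Mdm4 start at 133025416 in all 6 lists (chr1:133025417-133025666) and the Mdm4 start at 133030587 in none (chr1:133030588-133030837). At Bcl2l1 they covered the start at 152831728 in 5 lists (chr2:152831729-152831978) and the start at 152828489 in none (chr2:152828490-152828739). A further Bcl2l1 start, at 152830717, was also covered in 5 lists and is not shown. All 4 starts shown lie on the minus strand.
Mdm4, covered in 6 lists: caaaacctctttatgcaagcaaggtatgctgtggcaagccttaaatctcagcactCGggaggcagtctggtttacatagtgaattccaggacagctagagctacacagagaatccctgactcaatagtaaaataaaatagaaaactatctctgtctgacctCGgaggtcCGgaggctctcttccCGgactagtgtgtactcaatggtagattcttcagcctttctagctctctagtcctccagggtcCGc
Mdm4, covered in 0 lists: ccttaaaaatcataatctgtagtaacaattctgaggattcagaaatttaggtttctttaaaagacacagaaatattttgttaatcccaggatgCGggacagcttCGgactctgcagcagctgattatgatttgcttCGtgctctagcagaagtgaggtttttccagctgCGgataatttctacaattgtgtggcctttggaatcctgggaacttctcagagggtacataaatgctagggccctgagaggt
Bcl2l1, covered in 5 lists: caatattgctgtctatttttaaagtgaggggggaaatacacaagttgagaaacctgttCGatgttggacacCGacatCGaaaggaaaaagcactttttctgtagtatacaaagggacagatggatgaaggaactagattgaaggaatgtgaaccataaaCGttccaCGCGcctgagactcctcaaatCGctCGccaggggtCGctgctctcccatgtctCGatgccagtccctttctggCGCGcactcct
Bcl2l1, covered in 0 lists: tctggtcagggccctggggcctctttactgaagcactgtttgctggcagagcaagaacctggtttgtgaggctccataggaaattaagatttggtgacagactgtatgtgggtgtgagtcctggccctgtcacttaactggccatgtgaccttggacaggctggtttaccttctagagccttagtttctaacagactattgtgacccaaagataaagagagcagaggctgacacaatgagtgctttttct

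In the window of 300 bases that adds the 50 bases after the start, the covered Mdm4 start had 9 CpG and the uncovered one 4. The covered Bcl2l1 start had 22 and the uncovered one 1. Over all annotated starts the median was 24 CpG for starts covered in 6 lists and 3 for starts covered in 0 lists, so the covered Mdm4 start was poor in CpG for a start covered in every list.

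The last sequence is the upstream Bbc3 start (chr7:16309333-16309582, plus strand), shown for its run of GC boxes. Capitals mark the GC box GGGCGG and its complement CCGCCC. The box was present at 7 of 14 member starts, against 46.7% of all promoter windows, and CCAAT or its complement ATTGG at 4 of 14, against 38.5%. Both motifs were searched on both strands. The start shown held 5 GC boxes in its window of 300 bases, while the Bcl2 start and the Bbc3 start at 16310431 held 7 each.
Bbc3: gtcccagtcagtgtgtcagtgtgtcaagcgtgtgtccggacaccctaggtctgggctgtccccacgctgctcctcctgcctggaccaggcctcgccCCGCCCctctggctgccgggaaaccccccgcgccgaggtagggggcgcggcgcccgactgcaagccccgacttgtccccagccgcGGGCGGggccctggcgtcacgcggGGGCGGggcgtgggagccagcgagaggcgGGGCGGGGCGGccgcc

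Most members had an open promoter at both ages. None was called in every list of 1 age and in no list of the other, a pattern rare among all genes. A peak lay within 1 kb of an annotated start in all 6 lists at 7 of the 10 members (Trp53, Mdm2, Mdm4, Ccng1, Bcl2, Mcl1 and Bcl2l1), against a background of 34.5% of all genes. Bax and Bbc3 were called in 5 lists and Pmaip1 in 4, so 9 of 10 were called in at least 5 lists, against 49.9% of genes. Without aged replicate 3 and young replicate 2, 9 of 10 were called in all 4 remaining lists, against 53.8%. No member was called in all 3 lists of one age and none of the other, a pattern seen at 0.157% (aged) and 0.245% (young) of all genes. When a peak had to cover the start itself, only Mdm4 was called in all 6 lists, against 18.9% of genes. A start was covered in at least 5 lists at 7 of 10 members, against 36.4% of genes. Aged replicates 1 to 3 covered a start of 9, 10 and 7 members, and young replicates 1 to 3 covered 9, 2 and 10.

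**Figure D1:**
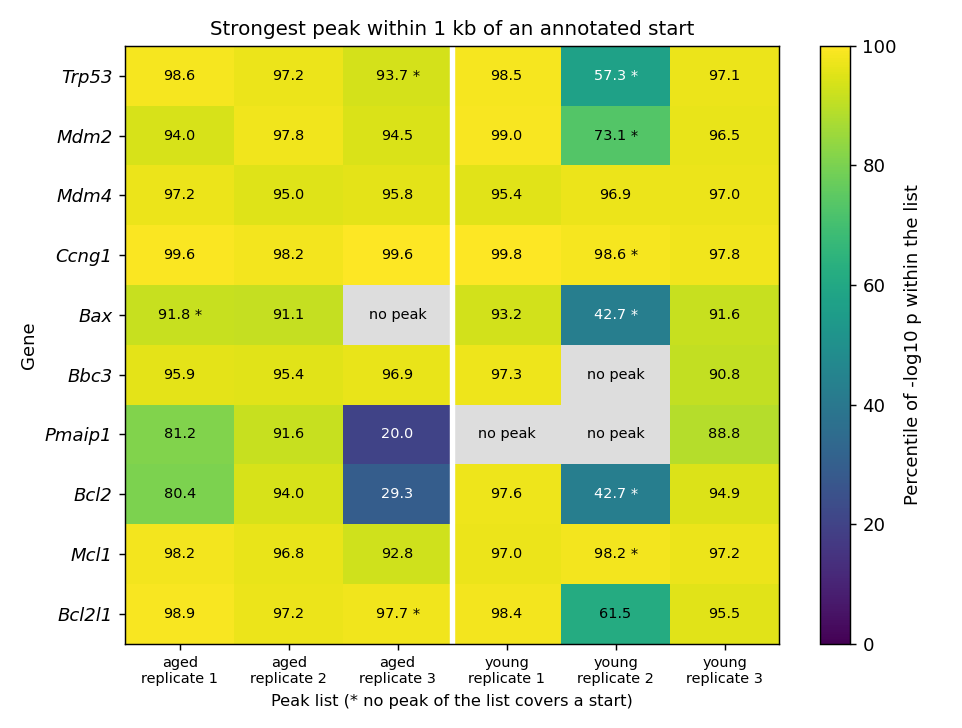
Percentile of -log10 p, within its own list, of the strongest peak within 1 kb of an annotated start of each gene (rows) in the 3 aged and 3 young lists (columns); Pmaip1 has no start in the table, so its 2 gene ends were used. Most cells sit above 90, and the low or empty cells are mostly in young replicate 2 and aged replicate 3, at Bax, Bbc3, Pmaip1 and Bcl2 among others.

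Peak strength is given as a percentile, the rank of the authors' -log10 p among all peaks of the same list, with 100 the strongest. A rank within a list can still depend on its depth. Differences between ages were tested by 2-sided exact permutation of 3 aged against 3 young lists, where the smallest p possible is 0.1, so no single comparison can pass 0.05. Adjusted p-values are over the 7 members with a call in every list, and the lowest was 0.817. With all peaks, the ranks of the ages lay apart at none of these 7, and at 3.31% (aged above) and 2.72% (aged below) of 7452 genes called in all lists. Under limits on the peaks used they did at Bcl2l1, with the values given there.

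At Trp53, the gene of p53 itself, the strongest peak within 1 kb ranked at percentiles of 98.6, 97.2 and 93.7 in aged replicates 1 to 3, against 98.5, 57.3 and 97.1 in young replicates 1 to 3. All lists except young replicate 2 lay close together, and the ages overlapped. Aged lists averaged 96.5 ± 2.55 and young lists 84.3 ± 23.4 (SD, n = 3 each), a difference of 12.2 (exact permutation p = 0.6). Without young replicate 2 it was -1.28.

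That peak is not on the Trp53 start. It lies at chr11:69579139-69579680, over an annotated start at 69579249 of Wrap53, the gene of a telomerase and Cajal body factor that is read in the opposite direction, and its summits were at -1074 to -979 bp from the Trp53 start at 69580359. The region on the Trp53 start, chr11:69580150-69580466, also holds the other Wrap53 start, at 69580250, and was called in 5 lists. It ranked at 94.9, 87.9 and 38.1 in aged replicates 1 to 3, against 96.2 and 90.9 in young replicates 1 and 3, with no call in young replicate 2. In each of these 5 lists the region over the Trp53 start ranked below the region over the Wrap53 start. Peaks have no strand, so the share of each gene in this opening cannot be told apart.

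Among the inhibitors of p53, Mdm2 had a pair of separate regions at its start, both called in all 6 lists. The strongest peak ranked at 94.0, 97.8 and 94.5 in aged replicates 1 to 3, against 99.0, 73.1 and 96.5 in young replicates 1 to 3. Young replicate 2 was again the low list, and its value is that of a separate peak with its summit at -726 bp. The difference in means was 5.93 (exact permutation p = 0.9, n = 3 each), and -2.29 without young replicate 2. The region over the start was chr10:117710545-117711031. The neighbouring region, chr10:117709854-117710484, began 274 bp inside the gene, where in mouse and human an internal promoter that p53 activates is known. It ranked at 80.2, 87.0 and 93.7 in aged replicates 1 to 3, against 96.9, 22.3 and 87.0 in young replicates 1 to 3, so it was open at both ages with overlapping ranks.

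Mdm4, whose product binds p53 and blocks its activation domain, had an even promoter. It ranked at 97.2, 95.0 and 95.8 in aged replicates 1 to 3, against 95.4, 96.9 and 97.0 in young replicates 1 to 3. All 6 lists lay between 95.0 and 97.2. The difference was -0.455 (exact permutation p = 0.7, n = 3 each). These peaks were all at the inner start, chr1:133025012-133025852, and no list held a peak within 1 kb of the upstream start.

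Among the targets, Ccng1, which encodes cyclin G1 and is a classical p53 target that feeds back on Mdm2, had the highest-ranked promoter. It ranked at 99.6, 98.2 and 99.6 in aged replicates 1 to 3, against 99.8, 98.6 and 97.8 in young replicates 1 to 3. Every list ranked it at 97.8 or above. The difference was 0.428 (exact permutation p = 0.7, n = 3 each). The region, chr11:40754792-40755565, contains the full p53 site match printed above.

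Bax, the pore-forming effector, had a start region, chr7:45466440-45467207, called in 4 lists. The strongest peak within 1 kb ranked at 91.8 and 91.1 in aged replicates 1 and 2, with no peak in aged replicate 3, against 93.2, 42.7 and 91.6 in young replicates 1 to 3. Without aged replicate 3 and young replicate 2, the remaining values lay between 91.1 and 93.2. The highest-ranked shared region of the Bax locus lay outside the gene: chr7:45460829-45461465, past the far end of Bax and 943 bp from the start of Ftl1, the ferritin light chain gene, ranked at 98.0, 97.8 and 99.3 in aged replicates 1 to 3, against 98.2, 99.5 and 98.1 in young replicates 1 to 3.

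Bbc3, the gene of the killer protein PUMA, had 3 annotated starts in 2 regions, chr7:16309166-16309691 and chr7:16309990-16310636, each called in every list but young replicate 2. The strongest peak ranked at 95.9, 95.4 and 96.9 in aged replicates 1 to 3, against 97.3 and 90.8 in young replicates 1 and 3. The ages overlapped. It was also the target with the most regions shared by all lists away from its own start, described further on.

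Pmaip1, the gene of NOXA, was the member whose promoter was called in the fewest lists. The table gives it no start, so both ends of the gene were used, and only the lower end, at chr18:66458191-66458915, carried a recurrent region. The strongest peak in either window ranked at 81.2, 91.6 and 20.01 in aged replicates 1 to 3, against 88.8 in young replicate 3 and no peak in young replicates 1 and 2. The value of aged replicate 1 came from the upper end, and at the lower end that list ranked at 61.8. With the 1 kb limit, a peak was thus called in 3 aged lists and in 1 young list. Young replicate 1 had peaks just outside it, 1275 bp from the lower end (percentile 24.3) and 1764 bp from the upper end (79.1). Its missing call therefore rests on that limit. Of the lists without a peak, young replicate 1 held 97.4% of otherwise shared regions and young replicate 2 held 62.3%. The share of all genes with such a split was not counted, and the difference in number of calls was not tested.

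Of the survival genes, Bcl2 had the most variable promoter. It ranked at 80.4, 94.0 and 29.3 in aged replicates 1 to 3, against 97.6, 42.7 and 94.9 in young replicates 1 to 3. The low values were those of aged replicate 3 and young replicate 2, the lists with the fewest calls on shared regions, and their part in the spread was not tested. Aged lists averaged 67.9 ± 34.1 and young lists 78.4 ± 30.9 (SD, n = 3 each), a difference of -10.5 (exact permutation p = 0.5). It was -28.3 without young replicate 2, 8.83 without aged replicate 3 and -9.02 without both, so its sign turned on leaving out aged replicate 3.

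Mcl1, the short-lived survival protein, had an even promoter. It ranked at 98.2, 96.8 and 92.8 in aged replicates 1 to 3, against 97.0, 98.2 and 97.2 in young replicates 1 to 3, with the value of young replicate 2 from a peak inside the gene. The difference was -1.51 (exact permutation p = 0.4, n = 3 each), and the ages overlapped. Its start region, chr3:95658367-95659129, was called in 5 lists, and a separate region inside the gene, chr3:95659282-95659776, in all 6.

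Bcl2l1, the gene of BCL-XL, ranked at 98.9, 97.2 and 97.7 in aged replicates 1 to 3, against 98.4, 61.5 and 95.5 in young replicates 1 to 3. The difference was 12.8 (exact permutation p = 0.3, n = 3 each). It was 0.996 without young replicate 2 and 1.12 without aged replicate 3 as well. The ages overlapped, and young replicate 2 was the low list. With only peaks of -log10 q of at least 1.3, ranked among themselves, the values were 97.1, 95.9 and 93.9 in aged replicates 1 to 3, against 92.1, 9.03 and 93.6 in young replicates 1 to 3. The ages then did not overlap, and the difference was 30.8 (exact permutation p = 0.1, n = 3 each). It included the 9.03 of young replicate 2, and young replicates 1 and 3 lay just below the lowest aged value. With the 100000 highest-ranked peaks of each list, aged replicates 1 to 3 ranked at 97.3, 96.4 and 97.0. Young replicates 1 to 3 ranked at 95.8, 5.73 and 95.0. The ages did not overlap either, and the difference was 31.4 (exact permutation p = 0.1, n = 3 each). Neither difference was recomputed without young replicate 2, the low list in both. Such separation with aged above was seen at 6.56% of 5261 genes under the q limit and at 5.86% of 5337 genes with the highest-ranked peaks, and with aged below at 1.41% and 3.19%. Of the 5 members still called in all 6 lists, Bcl2l1 was the 1 that separated under either limit.

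Over the 7 members called in all lists, aged ranked higher than young at 4, with a median difference of 0.428 points, against 65.6% of 7452 genes and a median of 1.23. Without young replicate 2, aged ranked higher at 2 of 7, with a median of -1.13, against 35.8% of genes and a median of -0.42. Without aged replicate 3 it was 6 of 7, with a median of 6.40, against 75.5% of genes and a median of 3.35. Without both lists it was 4 of 7, with a median of 0.125, against 51.0% of genes and a median of 0.0246. The tally thus changed on leaving out either of these lists, for the members as for all genes. The genes whose ranks over the 6 lists were nearest to those of Trp53, by Euclidean distance in percentile points, were Wrap53, at 0 because it shares the peak, Tbc1d8b at 2.04 and Gadd45g at 2.24. Nearest to Mdm2 were Mcm5 at 2.40, Rplp1 at 2.53 and Paxip1 at 2.65. Such likeness is common: 839 of 7452 genes lay within 10 points of Trp53 and 745 within 10 points of Mdm2.

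At Bcl2l1 the summit of the strongest peak lay at a different place in aged and young lists, a pattern picked after its values were seen. Relative to the start at 152831728, the strongest summit lay at 281, 276 and 283 bp in aged replicates 1 to 3, inside the gene, against -6, -49 and -23 bp in young replicates 1 to 3, at the start. The groups did not overlap, but the young replicate 2 value rests on a tie. That list had 2 peaks of the same -log10 p, and the summit nearer to a start was taken; the other lies 1292 bp from the same start, or 281 bp from the start nearest to it. Summits averaged 280 ± 3.61 bp in aged lists and -26.0 ± 21.7 bp in young lists (SD, n = 3 each), a difference of 306 bp (exact permutation p = 0.1, the smallest possible, and 0.35 adjusted over the 7 members). With the other tied peak, added after seeing the data, the groups overlapped, and the difference was -141 bp from the same start and 196 bp from the nearest start (exact permutation p = 1 and 0.3, n = 3 each). Leaving out any 1 list gave differences of 294.5 to 316 bp, with 294.5 bp without young replicate 2, and leaving out aged replicate 3 as well gave 293 bp. Over 6098 genes with an annotated start and a call in all 6 lists, the aged summits lay further into the gene than every young summit at 4.25%, and with a gap of at least 100 bp at 0.23%. The reverse order was seen at 4.84%, and with that gap at 0.361%. The gap at Bcl2l1 was 282 bp.

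Both summits were present in 4 of the 6 lists, 2 of each age, within 1 region, chr2:152831014-152831896, and what differed was which ranked higher. The inner summit had a -log10 p of 23.5 and the outer one 15.8 in aged replicate 1. In aged replicate 2 the values were 93.7 and 67.9. Aged replicate 3 had 12.5 at the inner summit and no summit near the start. In young replicate 1 the inner summit had 13.7 and the outer one 18.4, and in young replicate 3 they had 68.0 and 85.6. Young replicate 2 had a single weak peak at the start, of 3.94, tied with a peak near the start at 152830717. The fold enrichments given by the authors ordered the summits in the same way, 9.58 and 7.38 for inner and outer in aged replicate 1, 11.7 and 9.54 in aged replicate 2, 7.47 and 9.19 in young replicate 1, and 10.4 and 12.0 in young replicate 3. The comparison is within each list, so it does not rest on ranks between lists.

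**Figure D2:**
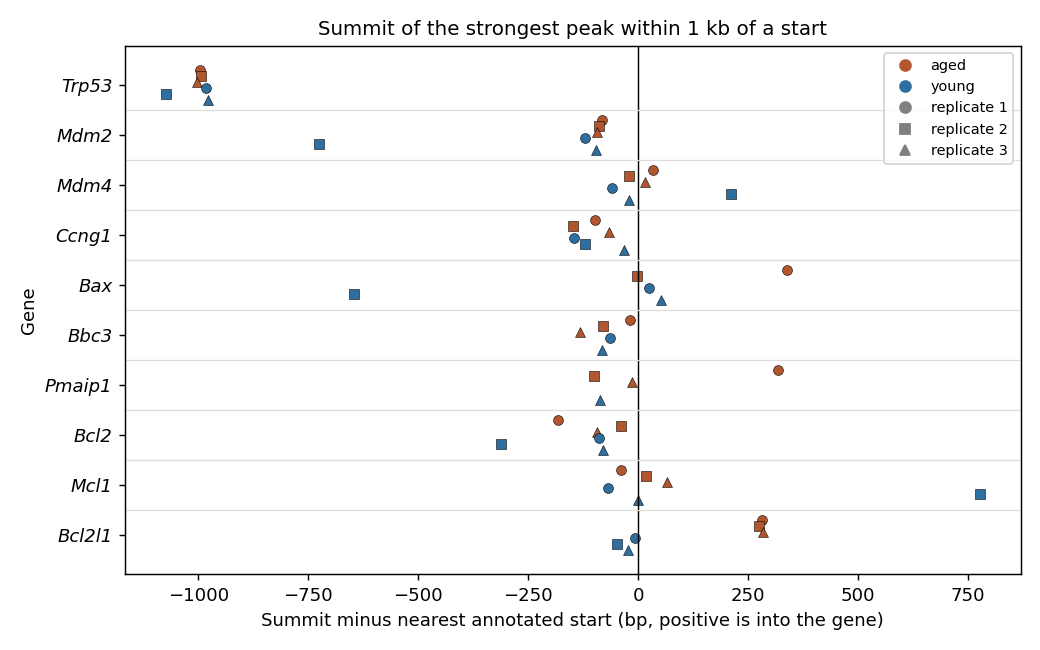
Distance in bp of the summit of the strongest promoter peak from the nearest annotated start (0 line, positive into the gene), by gene, with 1 point per list in which a peak was called; for Pmaip1, whose strand is not in the table, the distance is from the nearer gene end, the upper one in aged replicate 1 and the lower one in the other lists, and unoriented. At Bcl2l1 the 3 aged points lie at 276 to 283 bp and the 3 young points at -49 to -6 bp, while the ages mix at most other genes and the Trp53 points lie at -1074 to -979 bp, near a Wrap53 start.

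No other member called in all lists had such a gap. At Mdm2 the aged summits, at -82, -89 and -94 bp, also lay inside of the young ones, at -120, -726 and -96 bp, but by a gap of 2 bp. At Mdm4, Ccng1, Bcl2 and Mcl1 the ages overlapped, with median summits of -2.5, -109, -91.0 and 9.5 bp over the 6 lists.

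Over the whole loci, most regions were called in 1 list. The counts that follow include 22 regions within 1 kb of a member's start and 21 within 1 kb of another gene's start. No region was called in every list of 1 age and in no list of the other, a pattern rare in the genome as well. Of the 359 regions, 255 (71%) were called in 1 list, against 82.9% of regions in or near protein-coding genes and 85.2% of all regions. A call in all 6 lists was made at 17 of 359 (4.74%), against 1.61% of 550649 such regions and 1.09% of all. No region was called in all 3 aged and no young lists (background 0.0558% near genes and 0.0502% of all regions), and none in all 3 young and no aged lists (0.0708% and 0.0608%). Among the 20 regions called in 5 lists, the missing list was young replicate 2 at 13 and aged replicate 3 at 7. The 4 other lists all called 49 regions (13.6%, against 4.09%). Of the 17 regions called everywhere, 8 lay within 1 kb of a member's start, 4 within 1 kb of another gene's start, 1 inside a member and 4 between genes. Which gene a distal region serves was not measured.

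**Figure D3:**
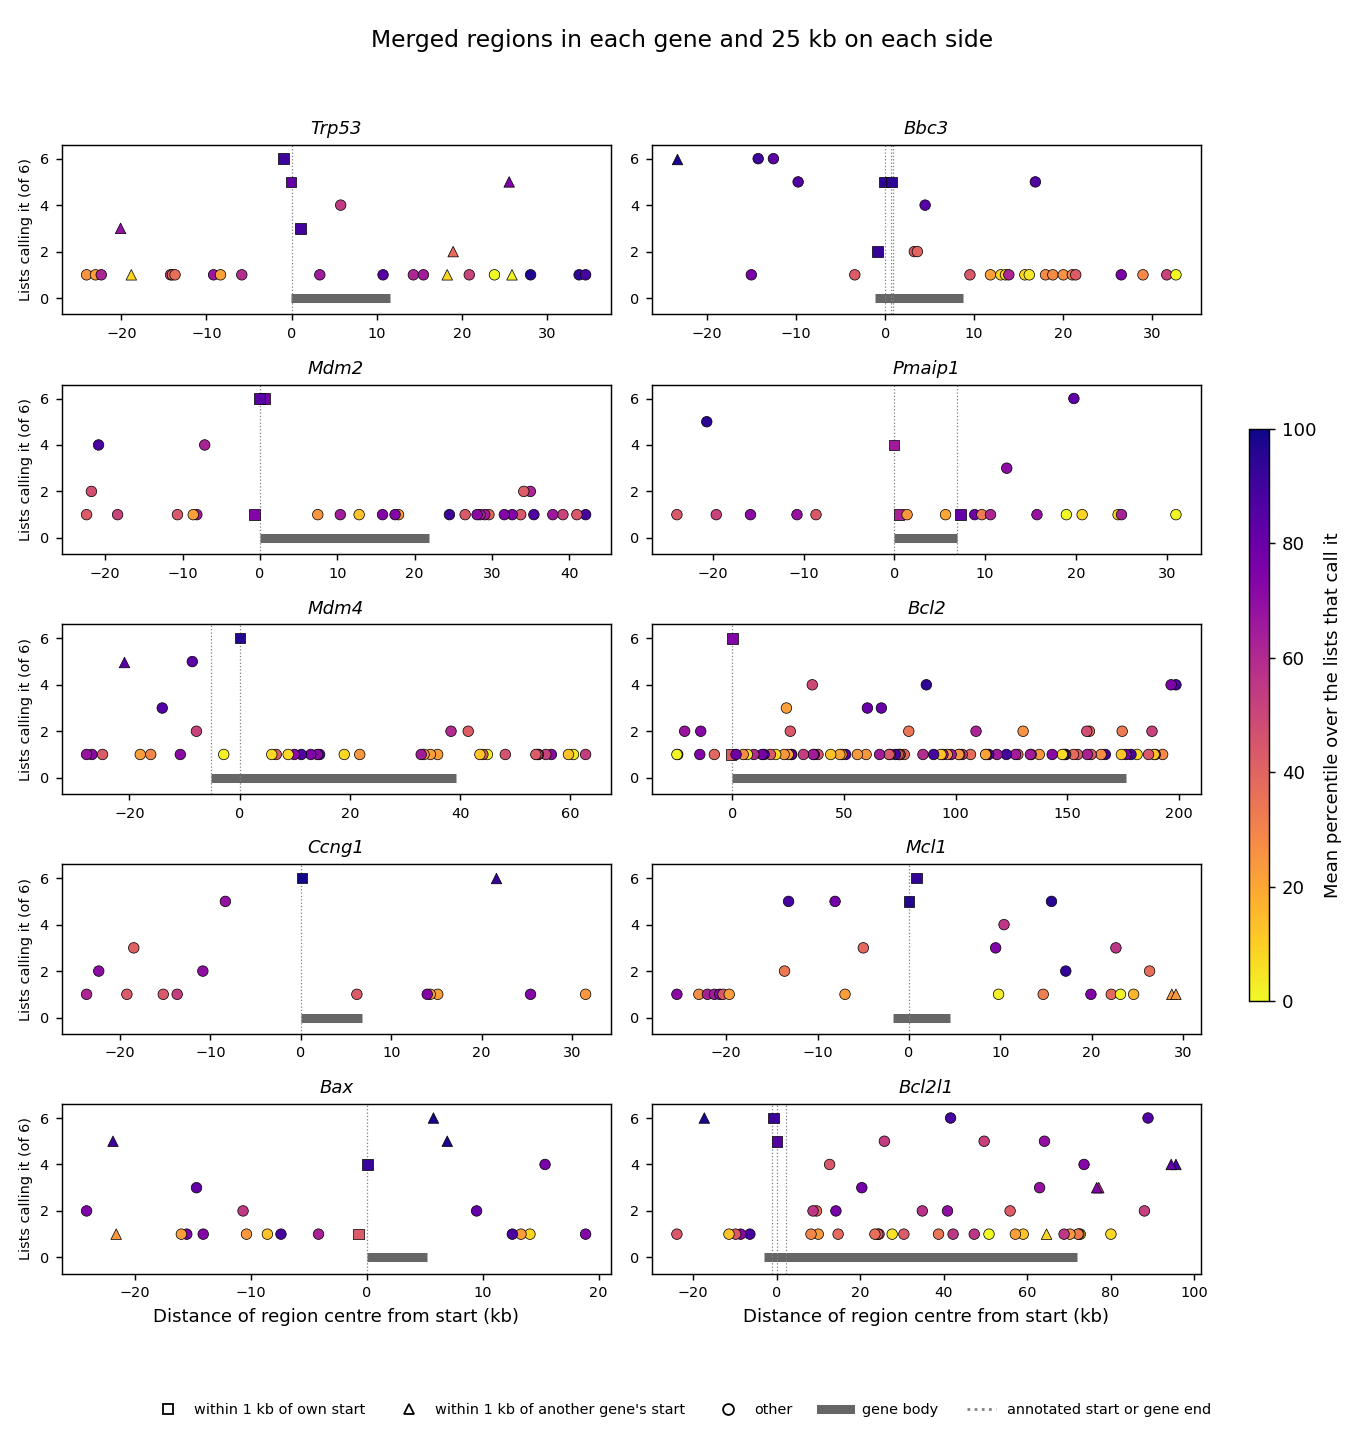
Each point is a merged region in a gene and the 25 kb on each side, placed by the distance of its centre from an annotated start (0 on the axis, other starts dotted) in kb (positive in the direction of the gene, or of the coordinates for Pmaip1) and by the number of lists, of 6, that call it, with the mean percentile as colour. Most points lie at 1 list, the 17 regions at 6 lists gather at starts, and Bbc3 and Bcl2l1 have the most such regions away from their own start.

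Bbc3 had 3 distal regions called in all 6 lists, all upstream. The farthest, chr7:16285388-16286947, overlaps the start of Ccdc9 and ranked at 99.3, 97.4 and 97.7 in aged replicates 1 to 3, against 98.9, 99.9 and 96.2 in young replicates 1 to 3. A region between genes, chr7:16294809-16295802, ranked at 98.4, 95.4 and 95.3 in aged replicates, against 98.7, 65.3 and 91.8 in young replicates. Its neighbour, chr7:16296807-16297231, ranked at 89.3, 89.4 and 94.3 in aged replicates, against 41.0, 97.3 and 88.1 in young replicates. These regions between genes lie 13781 and 12352 bp from the nearest Bbc3 start, and their ranks overlapped between ages. Young replicate 2 called both although it did not call the Bbc3 promoter.

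Bcl2l1 had 3 such distal regions. The one at the start of Tpx2, a spindle assembly gene, was chr2:152847708-152848306, with 98.2, 97.0 and 95.4 in aged replicates, against 99.5, 99.7 and 97.3 in young replicates. The region inside Bcl2l1, chr2:152788621-152789491, was the only shared region inside any member away from a start, and it ranked at 97.2, 96.2 and 95.2 in aged replicates, against 95.6, 55.6 and 93.8 in young replicates. The remaining one, chr2:152741413-152742176, lay between genes beyond the far end of Bcl2l1, 4003 bp from Id1, and ranked at 95.2, 95.2 and 70.6 in aged replicates, against 96.2, 61.5 and 92.6 in young replicates. At all 3 the ranks of the ages overlapped.

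At Ccng1 the shared distal region, chr11:40733206-40734239, sits on the start of Hmmr and Nudcd2 and ranked at 98.7, 95.4 and 95.8 in aged replicates, against 97.8, 73.1 and 94.0 in young replicates. At Pmaip1 the region between genes chr18:66478109-66478658 ranked at 99.0, 95.6 and 95.9 in aged replicates, against 96.7, 8.54 and 97.2 in young replicates, above the gene's own ends in each list with a peak there. On the other side of Pmaip1, chr18:66437727-66438153, picked after its values were seen, ranked at 92.4 and 94.3 in aged replicates 1 and 2, with no call in aged replicate 3, against 98.8, 99.7 and 89.9 in young replicates. These regions lie 12551 and 20451 bp from the nearer end of the gene.

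Bcl2, like Trp53, Mdm2, Mdm4 and Mcl1, had no region called in all 6 lists away from its own start. Its locus is the longest, 226 kb, and held 92 regions. Only the promoter region, chr1:106713684-106714746, was called in all 6 lists (1.09%, against 1.61% of regions in or near protein-coding genes). A call in 1 list was made at 74 (80.4%, against 82.9%), so both shares lay near the background. The strongest region inside the gene, chr1:106627199-106627694, also picked after its values were seen, lay 86596 bp from the start. It ranked at 97.6 and 92.0 in aged replicates 1 and 2, against 98.0 and 89.0 in young replicates 1 and 3, and had no call in aged replicate 3 and young replicate 2.

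The density of peaks over the loci did not separate the ages. The 10 loci held 0.0631 ± 0.0138% of the peaks of aged lists and 0.0618 ± 0.0256% of those of young lists (SD, n = 3 each), a difference of 0.00129 percentage points (exact permutation p = 1). By number of peaks per Mb per 100000 peaks of the list, the largest differences were at Mcl1 and Pmaip1. Mcl1 had 94.5, 179 and 109 in aged replicates 1 to 3, against 74.1, 62.8 and 129 in young replicates 1 to 3, a difference of 39.1 (exact permutation p = 0.3, n = 3 each). It was -11.6 with only peaks of -log10 q of at least 1.3 and 13.5 without aged replicate 2. Pmaip1 had 71.8, 68.0 and 81.1 in aged replicates, against 33.3, 34.4 and 79.4 in young replicates, a difference of 24.6 (exact permutation p = 0.3, n = 3 each). In both the ages overlapped through young replicate 3. No member's lists separated by age, against 3.28% (aged above) and 2.85% (aged below) of all genes, and every p adjusted over the 10 members was 1. Young replicate 3, the shortest list, had the highest young density at 9 of the 10 loci, all but Ccng1; the part of list length in the differences was not tested.

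**Figure D4:**
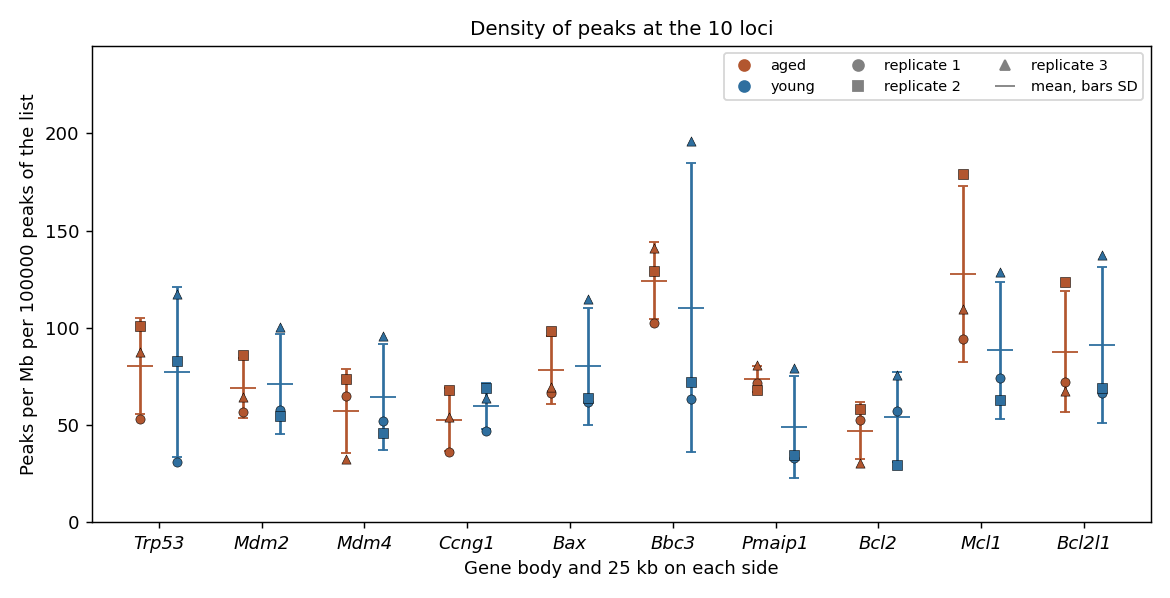
Peaks per Mb per 100000 peaks of the list over each gene with 25 kb on each side, with 1 point per list, aged left of young, and the mean with bars of 1 SD (n = 3 each). Aged and young points overlap at every gene; at Pmaip1 the 3 aged points (68.0 to 81.1) lie above young replicates 1 and 2 (33.3 and 34.4) but not above young replicate 3 (79.4).

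The wider p53 pathway was examined by the same count of lists, with both gene ends used where a gene had no annotated start. Of the genes named below these were Npm1, Trp63, Rrm2b and Bcl2l10, so a peak there may lie at either end of the gene. The same held for Zmat3, Trp53inp1, Ddb2, Xpc and Perp among the other targets called in all 6 lists. Of 20 p53 regulators, 14 had a promoter peak in all 6 lists, against the background of 34.5%. The highest by mean percentile were Chek2 (99.4), Atm (99.4) and Daxx (99.4), kinases of the DNA damage response and a death-domain partner, then Npm1 (98.6). The paralogues Trp63 and Trp73 had a peak in 0 and 2 lists. Of 21 other p53 targets, 16 were called in all 6 lists, against the same 34.5%, led by Polk (99.9), a bypass DNA polymerase, Rrm2b (99.4), Btg2 (99.1) and Aen (98.9), whereas Fas, a death receptor gene, and Pidd1 were called in 4. Cdkn1a, the p21 gene and best-known arrest target, was called in all 6 lists at 97.6, 91.0 and 62.0 in aged replicates 1 to 3, against 5.83, 98.1 and 88.4 in young replicates 1 to 3; it was named after its values were seen.

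Other BCL2 family genes were called in all 6 lists at 4 of 10, close to the 34.5% of all genes: Bcl2l11 (98.4), the BIM gene, Bmf (97.3), Bad (94.1) and Bak1 (76.6), while Hrk and Bcl2l10 were called in 2 lists each. Of 13 apoptosome and caspase genes, 9 were called in all 6 lists, again against 34.5%, led by Birc2 (98.7), Apaf1 (98.6), Cycs (98.5) and Casp9 (97.9), and the other 4 were called in 5. No gene of these lists was called in all 3 lists of one age and none of the other, a pattern seen at 0.157% (aged) and 0.245% (young) of all genes.

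**Figure D5:**
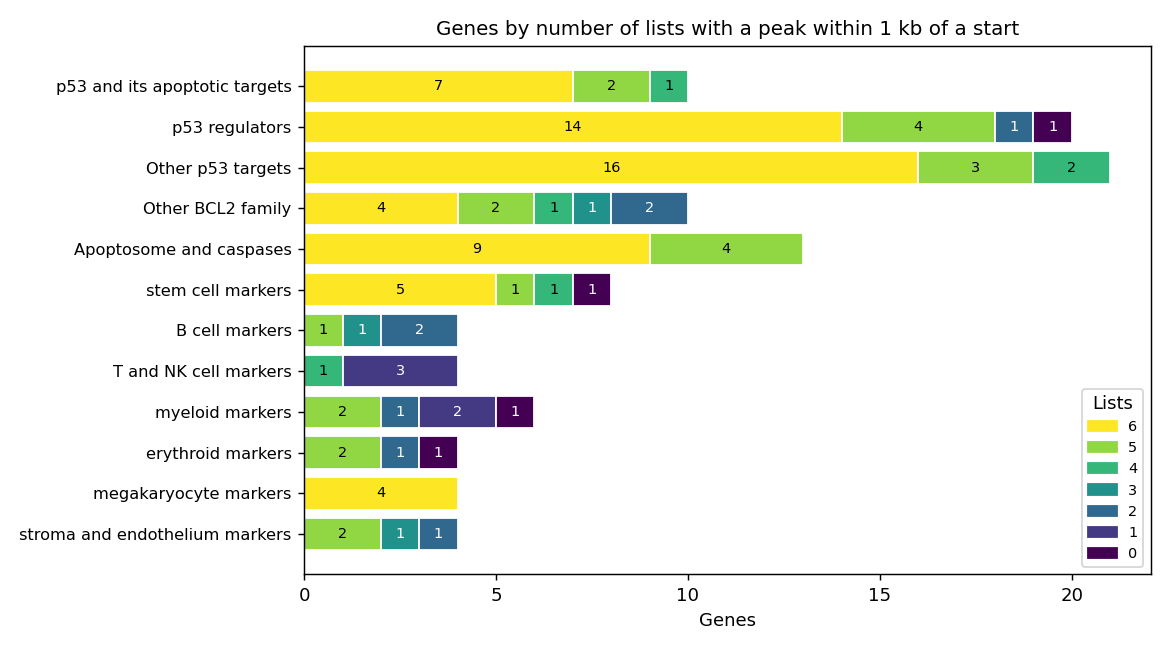
Number of genes in each list (bar length) by how many of the 6 peak lists have a peak within 1 kb of a start or gene end (colour). Of the 10 members 7 are called in all 6 lists, as are most other p53 regulators and targets, whereas none of the B cell, T and NK cell, myeloid, erythroid, or stroma and endothelium markers is.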

How the data were processed

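One ATAC-seq peak list per sample was used, 3 aged and 3 young, grouped and numbered by title. The build, per the submitters' processing notes, was mm10; they name Bowtie2, SAMtools, Picard and MACS2, and versions, roles and any shift of reads for the transposase are not given in the sources used here. The deposited lists have no header, and their layout and values show peaks called per sample. The deposited score restates the -log10 p on a coarser, capped scale. The fold enrichment deposited by the authors is a ratio of peak to local background within its sample. Their deposited p and q, each as -log10, are values of single peaks that grow with depth. Weak peaks are included, since the authors kept p up to 0.01.

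From these, rows that repeat an interval were collapsed to 1 peak with the highest -log10 p, Y peaks were left out, and peaks of all lists were merged at 1 bp of overlap. A list called a region if a peak of it overlapped the region. Percentiles rank the -log10 p of a peak among those of its list, giving ties their mean rank. Starts came from the RefSeq promoter table on GRCm38.p6 for 17274 of 21631 genes; for the other 4357 (Pmaip1 among them) both gene ends were used. Means were compared by exact 2-sided permutation tests with Benjamini-Hochberg adjustment, in Python 3.11.15 with SciPy 1.17.1. The counting of regions was tested on simulated data. A p53 site was searched as a pair of half-sites with a spacer of up to 13 bases.

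The members and gene lists were chosen with earlier results of these data known. All members are named. Of distal regions, those called in all 6 lists were named, up to 3 per locus; of other lists, up to 4 genes with the most calls and highest mean percentile and up to 2 with the fewest. No block was used in the main comparison: the labels do not say that a shared number marks a day or batch, and deviations of same-numbered lists from the mean of their age correlated at r = 0.0557, -0.0398 and -0.0241 over 9582 regions, none over 0.1. Alternatives were limits on q and on list length, overlap, flank, promoter window, rank by fold and leaving out lists.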

Additional observations from a re-analysis of the deposited data

How the results depend on the processing

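Of 248 values recomputed under other settings, 187 kept their direction or, for counts, stayed within 1.5 times, 43 changed sign and 18 counts moved further; the lowest p under any setting was 0.1. The 17 regions called in all lists became 10 with -log10 q of at least 1.3, 9 with the 100000 highest-ranked peaks of each list, 3 when peaks had to cover 50% of the region, 10 with a flank of 5 kb, 17 to 30 leaving out 1 list (30 without young replicate 2) and 48 without aged replicate 3 and young replicate 2, a setting chosen after seeing the data. Regions called in every aged and no young list numbered 0 to 4 leaving out 1 list and 5 without both lists, and the converse 0 to 4 and 3. Fewer lists make each of these rules easier to meet. The 7 members with a promoter called in all lists became 3 at 50% cover, 1 when a peak had to cover the start (also chosen after seeing the data), and 7 or 8 leaving out 1 list.

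The difference in share of peaks was -0.00426 at the q limit, -0.00193 with the 5 kb flank, -0.00244 without both lists and -0.00667 to 0.0161 leaving out 1 list. The q limit gave differences in density of -2.80 (Trp53), 12.0 (Mdm4) and -11.6 (Mcl1) and of 2.86 in the Mdm4 percentile. The highest-ranked peaks gave 1.47 in the Mdm4 percentile and densities of 10.6 (Mdm4) and 16.0 (Bcl2l1). Ranking by fold gave -0.223 for the Trp53 percentile. Without both lists the Mdm2 percentile differed by -1.81, the Mcl1 percentile by 0.423 and the Bbc3 density by -13.9. Leaving out 1 list, percentile differences ran over -1.28 to 19.3 (Trp53), -2.29 to 10.7 (Mdm2), -1.05 to 0.0258 (Mdm4), -0.0419 to 0.954 (Ccng1), -28.3 to 8.83 (Bcl2) and -2.62 to 0.0438 (Mcl1). Density differences ran over -19.8 to 23.6 (Trp53), -10.5 to 12.8 (Mdm2), -16.8 to 8.17 (Mdm4), -14.7 to 1.37 (Ccng1), -12.0 to 15.3 (Bax), -9.83 to 56.6 (Bbc3), -19.4 to 3.86 (Bcl2) and -21.2 to 19.97 (Bcl2l1). The cause was not tested. Differences at Bcl2l1 (percentile and summit), Mcl1 (density, 13.5 to 59.2) and Pmaip1 (density, 16.7 to 39.7) kept their sign when any 1 list was left out. With the tie in young replicate 2 resolved to the other peak, added after seeing the data, the Bcl2l1 summit difference was -141 bp from the same start and 196 bp from the nearest start. The Bcl2l1 percentile difference was 30.8 at the q limit and 31.4 with the highest-ranked peaks. Young replicate 2 was the low list in both, at 9.03 and 5.73.

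A replicate block over the shared numbers leaves each mean difference as it is, such as 0.00129 for the share of peaks and 306 bp for the Bcl2l1 summit; its sign-flip p cannot go below 0.25, and no call changed. Depth is unknown, so a missing call is not evidence of closed chromatin.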
